A study of Homo sapiens with 4 samples.

Results

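The circadian clock genes examined here are the 10 core clock and output genes CLOCK, BMAL1, PER1, PER2, PER3, CRY1, CRY2, NR1D1, NR1D2 and DBP, taken by symbol from a table of 28814 genes. All 10 had a row and all 10 passed the filter on low counts, as did 16862 genes in all. The RNA came from the human cell line 697, long established from a B-cell precursor leukaemia, sequenced after 24 h with 1 µM MZ1 (2 libraries) or with an equal volume of the solvent DMSO (2 libraries). MZ1 is a degrader that joins the BET bromodomain ligand JQ1 to a recruiter of the VHL ligase, so that BET proteins are ubiquitinated and destroyed. Both groups share the cell line and the 24 h of treatment. The labels name no synchronisation of the cells and no other collection time. Whether the replicates came from separate cultures is not said. Test values for other genes below therefore set a difference against the spread between libraries, which may be technical.

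In the mammalian clock, the bHLH-PAS proteins CLOCK and BMAL1 pair on DNA motifs called E-boxes and switch on the PER, CRY, NR1D and DBP genes. PER and CRY proteins return to the nucleus and hold back CLOCK and BMAL1, while the nuclear receptors REV-ERBα (NR1D1) and REV-ERBβ (NR1D2) repress BMAL1 at elements that ROR receptors activate. DBP is an output factor of the PAR bZIP family that acts at D-boxes. Most cell types, blood cells among them, carry this loop, but a bulk library sums cells whose clocks need not be in phase, so a single time gives levels and not rhythms.

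The members were taken by name, but the set was selected on MZ1 against DMSO log2 fold changes already known from these libraries. The differences are therefore given as a description, with no test. Levels are in CPM, a gene's count relative to the library total, with TMM scaling, which lines up the bulk of genes between libraries. Differences are log2 fold changes of MZ1 over DMSO with a standard error (SE). The SE was derived from each gene's coefficient and F statistic in the fit over all genes. No spike-in is named, so levels are relative, and fewer transcripts per cell cannot be told apart from fewer cells of a kind.

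CRY2 stood furthest apart. It was 10.3-fold higher with MZ1, and PER1, BMAL1, NR1D2 and CRY1 were also higher, by 1.63-fold to 2.11-fold. NR1D1 was 3.18-fold lower, DBP 2.27-fold and PER3 2.04-fold. CLOCK (1.24-fold lower) and PER2 (1.11-fold lower) lay nearest to their DMSO levels. Of the 10, 5 were called higher and 4 were called lower by edgeR (adjusted p threshold 0.05), beside 42.8% of all tested genes called higher and 41.3% called lower, or 84.2% in either direction. The CPM ranges of the groups did not overlap for any of the 10, beside 91.3% of all tested genes. The MZ1 values were the higher ones in 5 members (46.6% of all tested genes) and the lower ones in 5 (44.7%). The lower call of CLOCK was lost in 5 of 12 alternatives, among them DESeq2 and leaving out DMSO replicate 1 or MZ1 replicate 1. Since the members were chosen with this comparison known, nothing is read from these counts.

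The promoters are shown for the member with the largest positive difference, the member with the largest negative one, and 3 members whose windows hold motifs by which the loop is known. RefSeq promoter windows (GRCh38.p14, 250 bases before to 50 bases after a start site) were found for all 10 members, 15 windows in all. Bases annotated as exon in GENCODE 29 were left out, and the longest remaining run before the start is printed, 5′ to 3′ on the gene's strand. Capitals mark a match to the E-box CACGTG, the E′-box CACGTT, the D-box TTATGTAA or TTATGCAA, or the core of the ROR element TAGGTCA or TGGGTCA, on either strand. Of the members, 5 had 2 or more windows. For CRY2 and NR1D2 the window that holds matches is shown. The stretches of their other windows (chr11:45846868-45847117 and chr3:23945036-23945259) hold none and are not printed.
CRY2 (chr11:45847282-45847405, plus strand): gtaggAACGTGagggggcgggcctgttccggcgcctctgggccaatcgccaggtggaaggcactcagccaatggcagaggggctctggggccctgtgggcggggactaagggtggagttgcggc
NR1D1 (chr17:40100726-40100839, minus strand): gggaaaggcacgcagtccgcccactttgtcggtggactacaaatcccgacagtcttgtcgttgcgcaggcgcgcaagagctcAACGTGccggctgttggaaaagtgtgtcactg
PER1 (chr17:8152436-8152654, minus strand): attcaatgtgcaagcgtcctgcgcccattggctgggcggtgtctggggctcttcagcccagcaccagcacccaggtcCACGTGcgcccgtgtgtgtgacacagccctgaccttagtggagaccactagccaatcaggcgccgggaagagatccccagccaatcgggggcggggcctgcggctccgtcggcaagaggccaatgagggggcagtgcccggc
PER2 (chr2:238288611-238288860, minus strand): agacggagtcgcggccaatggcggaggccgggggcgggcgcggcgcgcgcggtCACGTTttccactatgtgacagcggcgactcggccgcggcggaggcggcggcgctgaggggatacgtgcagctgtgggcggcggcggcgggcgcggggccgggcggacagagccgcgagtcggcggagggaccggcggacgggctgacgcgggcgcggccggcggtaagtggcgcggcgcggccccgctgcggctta
NR1D2 (chr3:23945871-23946120, plus strand): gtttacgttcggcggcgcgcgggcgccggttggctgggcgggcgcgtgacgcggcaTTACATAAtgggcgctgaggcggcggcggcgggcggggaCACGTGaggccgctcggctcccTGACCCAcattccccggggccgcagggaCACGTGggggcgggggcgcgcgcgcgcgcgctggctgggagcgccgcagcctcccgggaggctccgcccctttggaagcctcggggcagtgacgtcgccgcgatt

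The PER1 stretch holds an E-box 173 bases before the start, and the NR1D2 stretch holds a pair of E-boxes, 155 and 105 bases before it, with a D-box and a ROR element core beside them. Those of PER2, NR1D1 and CRY2 hold the E′-box. Over 35116 promoter windows of the same length, CACGTG was found in 7.26%, CACGTT in 5.34%, a D-box in 1.71% and a ROR element core in 5.69%. Among the members, PER1 and NR1D2 had an E-box, CLOCK, CRY1, CRY2, NR1D1 and PER2 an E′-box, and NR1D2, PER1 and PER3 a D-box. ROR element cores lay in windows of BMAL1, CLOCK, CRY2 and NR1D2. Counted by window, as the shares above are, the E-box was in 2 of the members' 15 and the E′-box in 5. The D-box was in 3 and the ROR element core in 4. The D-box of PER1 and the ROR element core of CRY2 lie outside the printed stretches. The cAMP response element TGACGTCA was in 1.85% of all windows and in 0 of the members' 15. The E-box and the E′-box differ in their last letter only, so the same letters cannot be counted as both on a strand. A match describes the letters only.

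The activators came apart. CLOCK, the bHLH-PAS factor with histone acetyltransferase activity, was at 23.2 and 20.2 CPM in the DMSO libraries and at 17.1 and 17.9 CPM with MZ1, a difference of −0.31 ± 0.11 (log2, SE). Without DMSO replicate 1 it was −0.26 and without MZ1 replicate 1 it was −0.27, and neither passed the threshold. BMAL1 (listed as ARNTL in older annotations), its partner and the only single gene of the loop whose loss is known to stop rhythms in mice, was at 31.2 and 30.2 CPM with DMSO and at 54.7 and 52.8 CPM with MZ1, a difference of 0.81 ± 0.08. All BMAL1 values with MZ1 thus lay above its DMSO values, and all CLOCK values below, the latter with the nearest libraries at 20.2 and 17.9 CPM. Per kilobase of exon, the ratio of BMAL1 to CLOCK was 2.35 and 2.61 with DMSO and 5.61 and 5.18 with MZ1. A ratio within a library does not depend on how libraries are scaled.

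**Figure D1:**
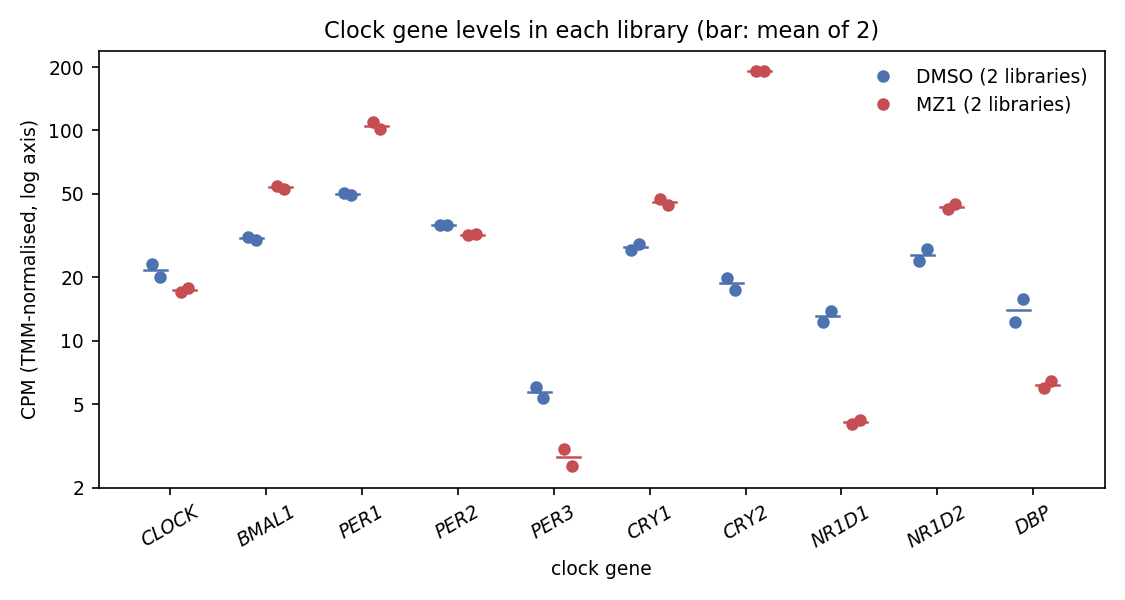
Level of each clock gene in each library, in TMM-normalised CPM on a log axis, with 1 point per library and a short bar at the mean of the 2 libraries. CRY2 moves from the lower range to the top of the set (from 18.8 to 192.5 CPM on average). The points of the groups do not overlap for any of the 10 genes, which also holds for 91.3% of all tested genes.

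The 3 period genes went 3 ways. PER1, the period gene that responds fastest to external signals, was at 50.4 and 49.5 CPM with DMSO and at 109 and 102 CPM with MZ1, a difference of 1.08 ± 0.06. PER2, the other period protein essential for the loop, was at 35.6 and 35.4 CPM with DMSO and at 31.8 and 32.2 CPM with MZ1, a difference of −0.15 ± 0.08. Its replicates differed little, but the sign of the difference turned with the scaling (0.12 with upper-quartile scaling, 0.0205 with a stricter count filter). PER3, whose loss has mild effects on rhythms, was the lowest member throughout, at 6.05 and 5.37 CPM with DMSO and 3.04 and 2.53 CPM with MZ1, a difference of −1.03 ± 0.24 that rests on 99 and 91 counts against 43 and 35. Of its exonic bases 16.7% are shared with other genes, UTS2 among them.

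Per kilobase, PER1 over PER2 was 1.39 and 1.37 with DMSO and 3.38 and 3.10 with MZ1. PER1 over PER3 was 9.64 and 10.7 with DMSO and 41.6 and 46.4 with MZ1. PER1 was thus the main period transcript in all 4 libraries, and more so with MZ1.

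The cryptochromes, flavoprotein relatives of the photolyases and the strongest repressors of CLOCK and BMAL1, were both higher, but by unequal amounts. CRY1 (chromosome 12, 106991364 to 107093829, GRCh38) was at 27.0 and 28.97 CPM with DMSO and at 47.3 and 44.1 CPM with MZ1, a difference of 0.71 ± 0.08. CRY2 (chromosome 11, 45847118 to 45883248; ENSG00000121671) was at 19.98 and 17.5 CPM with DMSO and at 193 and 192 CPM with MZ1, from 327 and 297 counts to 2725 and 2661 counts, a difference of 3.36 ± 0.06. The group means were 18.8 ± 1.7 and 192.5 ± 0.30 CPM (SD, n = 2). None of the annotated exonic bases of CRY2 is shared with another gene. Of 16862 tested genes, 1486 had a larger log2 fold change.

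The order of the cryptochromes was opposite in the groups. Per kilobase, CRY2 over CRY1 was 0.60 and 0.49 with DMSO and 3.33 and 3.56 with MZ1, a 6.27-fold change of the mean ratio. Of the summed per-kilobase level of PER and CRY transcripts, CRY2 made up 14.9% and 13.2% with DMSO and 50.9% and 52.4% with MZ1. This sum was 21.7 and 21.4 CPM per kilobase with DMSO and 61.1 and 59.2 with MZ1, and that of CLOCK and BMAL1 was 6.61 and 6.20 with DMSO and 9.58 and 9.37 with MZ1. CRY2 alone gave 3.22 and 2.83 of the PER and CRY sum with DMSO and 31.1 and 31.0 with MZ1. The PER and CRY sum over the CLOCK and BMAL1 sum came to 3.28 and 3.46 with DMSO and 6.37 and 6.32 with MZ1. With the longest transcript as the length this ratio was 2.81 and 2.93 with DMSO and 5.49 and 5.47 with MZ1. The REV-ERB genes and the BMAL1 paralog BMAL2 are in neither sum. BMAL2 was at 2.65 and 2.60 CPM per kilobase with DMSO and at 1.23 and 1.00 with MZ1. These are transcript sums, and protein was not measured.

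The REV-ERB genes differed in opposite directions. NR1D1 (chromosome 17, 40092787 to 40100725) was at 12.3 and 13.9 CPM with DMSO and at 4.03 and 4.19 CPM with MZ1, a difference of −1.67 ± 0.17. NR1D2 was at 24.1 and 27.2 CPM with DMSO and at 42.2 and 44.7 CPM with MZ1, a difference of 0.76 ± 0.09. Per kilobase, NR1D2 over NR1D1 was 0.93 in both DMSO libraries and 4.98 and 5.08 with MZ1, so near-equal levels became a clear lead of NR1D2.

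NR1D1 lies tail to tail with the thyroid hormone receptor gene THRA on the opposite strand, and 9.49% of its exonic bases are shared with it. Without a stated strand setting, reads from the shared stretch cannot be assigned to either gene. THRA itself was at 62.8 and 59.6 CPM with DMSO and at 20.5 and 20.1 CPM with MZ1, lower by 1.59 ± 0.08 on the log2 scale (edgeR adjusted p = 1.58e-15), and its part in the NR1D1 values was not tested.

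DBP, the PAR bZIP output factor, was at 12.2 and 15.9 CPM with DMSO and at 5.94 and 6.43 CPM with MZ1, a difference of −1.18 ± 0.17. Its DMSO replicates lay further apart than those of the other members, by 0.37 on the log2 scale, where the median gap of all tested genes was 0.11. DBP shares 10.1% of its exonic bases with SPHK2 on the opposite strand. SPHK2 was at 38.4 and 39.2 CPM with DMSO and at 7.85 and 7.95 CPM with MZ1 (edgeR adjusted p = 7.6e-16), and its part in the DBP values was likewise not tested.

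**Figure D2:**
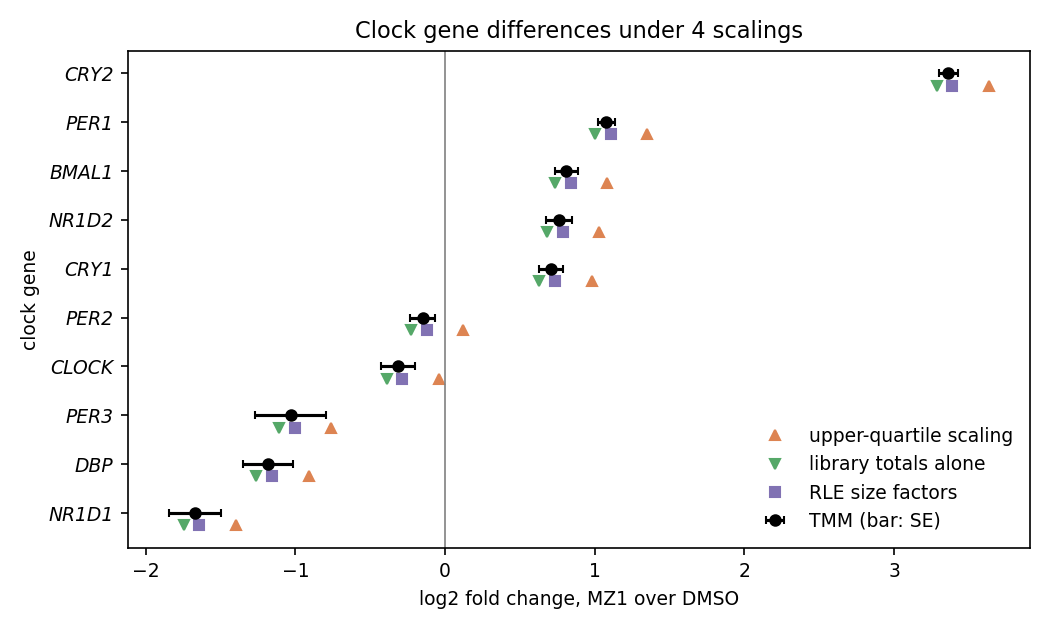
Log2 fold change of MZ1 over DMSO for each clock gene, with black points and SE bars for TMM scaling and coloured marks for 3 other scalings. Upper-quartile scaling moves all genes to the right, PER2 to 0.12 and CLOCK to −0.04.

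Scaling bears on the members near 0. Over the genes tested in both fits, log2 fold changes moved from the values above by a median of 0.27 with upper-quartile scaling. With the stricter count filter the median shift was 0.17. PER2 changed its sign with both. CLOCK remained lower but went from −0.31 to −0.04 with upper-quartile scaling. CLOCK and the other 8 members kept their sign under all 12 alternatives run, with CRY2 between 3.23 and 3.63 and NR1D1 between −1.80 and −1.40.

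Set in order per kilobase of exon, the members with DMSO ran from PER1 at 7.13 CPM per kilobase through CRY1 (5.53), PER2 (5.16), NR1D1 (4.73), BMAL1 (4.56), NR1D2 (4.40), CRY2 (3.02), DBP (2.15) and CLOCK (1.85) to PER3 (0.705). Neighbours whose libraries overlapped were NR1D1 with BMAL1, BMAL1 with NR1D2, and DBP with CLOCK. All members lay between the 18.6th and the 58.1st percentile of 12639 tested protein-coding genes.

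With MZ1 the order was CRY2 (31.1 CPM per kilobase), PER1 (15.1), CRY1 (9.03), BMAL1 (7.99), NR1D2 (7.47), PER2 (4.65), CLOCK and NR1D1 (both 1.48), DBP (0.946) and PER3 (0.344), and only CLOCK and NR1D1 overlapped. CRY2 thereby reached the 92.0th percentile of protein-coding genes, from the 37.4th with DMSO, while NR1D1 went from the 47.4th to the 29.2nd. With the longest transcript as the length, BMAL1 took a place above CRY1 in both groups, and CRY2, PER1 and PER3 kept theirs in the MZ1 order.

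**Figure D3:**
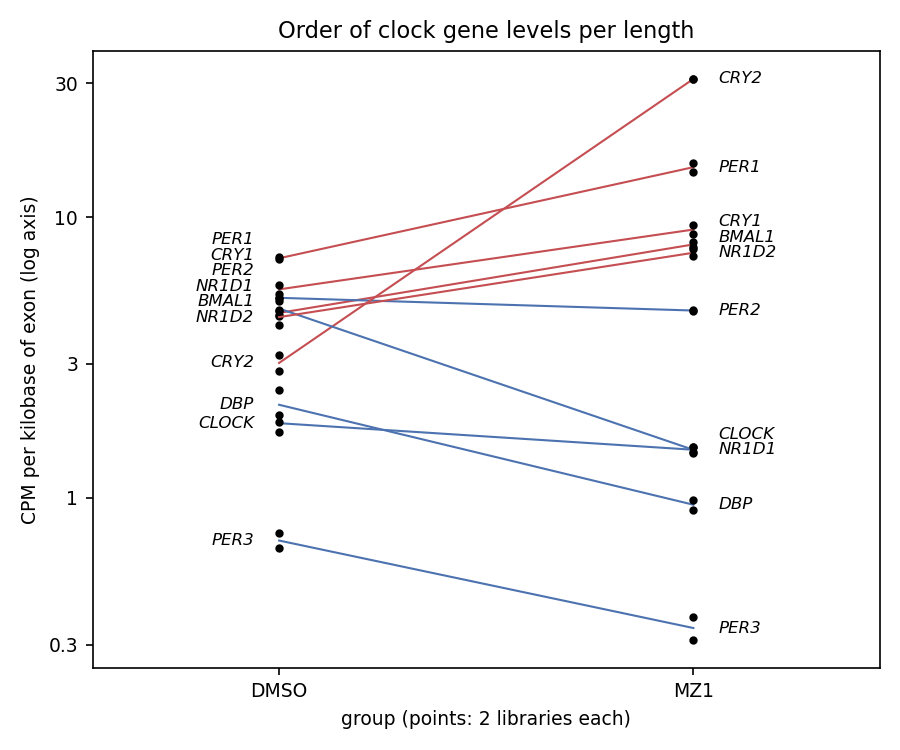
Mean level of each clock gene per kilobase of exon in the DMSO and MZ1 libraries, on a log axis, with points for single libraries and lines in red for genes higher and in blue for genes lower with MZ1. CRY2 crosses from the 7th place to the top, and the line of NR1D1 drops from the middle to the level of CLOCK.

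Other factors of the loops were tested in the fit over all genes. Of 12 listed, 9 were tested, 2 rose, 2 fell and 5 did not pass, beside 42.8% of all tested genes called higher and 41.3% called lower. The median log2 fold change was 0.12 beside 0.05 over all tested genes, and it went to 0.0075 without DMSO replicate 2, 0.21 without DMSO replicate 1 and 0.24 without MZ1 replicate 2, where 10 of the list were tested. BHLHE40 (DEC1), a repressor that competes at E-boxes, rose from 1.53 and 2.07 CPM to 29.6 and 28.1 CPM, a difference of 3.998 ± 0.17 (edgeR adjusted p = 3.4e-17). BMAL2, the BMAL1 paralog, fell from 18.5 and 18.2 CPM to 8.56 and 7.01 CPM, a difference of −1.23 ± 0.14 (edgeR adjusted p = 1.35e-08). The BMAL paralogs thus differed in direction, and BMAL2 over BMAL1 per kilobase was 0.57 and 0.58 with DMSO and 0.15 and 0.13 with MZ1.

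TIMELESS, a fork protection factor also linked to PER proteins, fell from 196 and 200 CPM to 109 and 106 CPM (−0.88 ± 0.05; edgeR adjusted p = 7.68e-15). TEF, the PAR bZIP relative of DBP, was called higher, from 13.99 and 11.0 CPM to 15.8 and 18.4 CPM (0.45 ± 0.14; edgeR adjusted p = 0.00403), but not without DMSO replicate 2 (0.25; adjusted p = 0.154) or without a count filter (0.38; adjusted p = 0.10). NFIL3 (E4BP4), which opposes DBP at D-boxes, did not pass the test, with 33.0 and 32.0 CPM against 35.9 and 34.6 CPM. It was called higher with upper-quartile scaling (0.39) and with the stricter count filter (0.29).

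Among the ROR receptors, which act against REV-ERB proteins, RORB was by far the best covered. It was at 115 and 121 CPM with DMSO and at 110 and 112 CPM with MZ1 (−0.09 ± 0.05; edgeR adjusted p = 0.0967), with the sign turned under upper-quartile scaling (0.18) and the stricter filter (0.08). It was called higher with the former and lower with library totals (−0.17), no count filter (−0.17) or DMSO replicate 1 left out (−0.18). Its level of 12.3 CPM per kilobase with DMSO lay above that of each of the 10 clock members. RORA had 7 to 17 counts per library (edgeR adjusted p = 0.324). NPAS2, which can stand in for CLOCK, had 7 to 24 counts (edgeR adjusted p = 0.0631), and the repressor gene CIART 3 to 14 (edgeR adjusted p = 0.347). Neither passed the test, although NPAS2 did without DMSO replicate 2 (1.79; adjusted p = 0.0156) and with upper-quartile scaling (1.19; adjusted p = 0.0194).

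Of 18 tested kinases and turnover factors of clock proteins, 8 rose and 6 fell, counts near the shares of all tested genes (42.8% and 41.3%). The median of 0.13 was 0.07 without DMSO replicate 2 and 0.41 with upper-quartile scaling. Over all tested genes it was 0.05, and 0.11 and 0.32 in those 2 settings. GSK3B, a kinase of several clock proteins, rose from 63.6 and 60.1 CPM to 158 and 159 CPM (1.36 ± 0.05; edgeR adjusted p = 6.09e-18). CSNK1E, which encodes the PER kinase casein kinase 1 epsilon, rose by 0.98 ± 0.05 and shares 21.1% of its exonic bases with a read-through gene. FBXW7, part of a ubiquitin ligase that targets REV-ERBα among many proteins, rose by 0.90 ± 0.04.

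Those with the smallest adjusted p among the genes that fell were CSNK2A1, a catalytic subunit of casein kinase 2 (−1.09 ± 0.05), PRKAA1, an AMPK subunit that marks CRY proteins for turnover (−1.48 ± 0.08), and the ligase scaffold gene CUL1 (−0.75 ± 0.05). The other catalytic subunit gene, CSNK2A2, rose (0.59 ± 0.05; edgeR adjusted p = 1.38e-10), and it is named beside CSNK2A1 after its value was seen. With upper-quartile scaling 12 of the list rose and 5 fell, beside 8304 and 5880 of all 16862 tested genes.

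**Figure D4:**
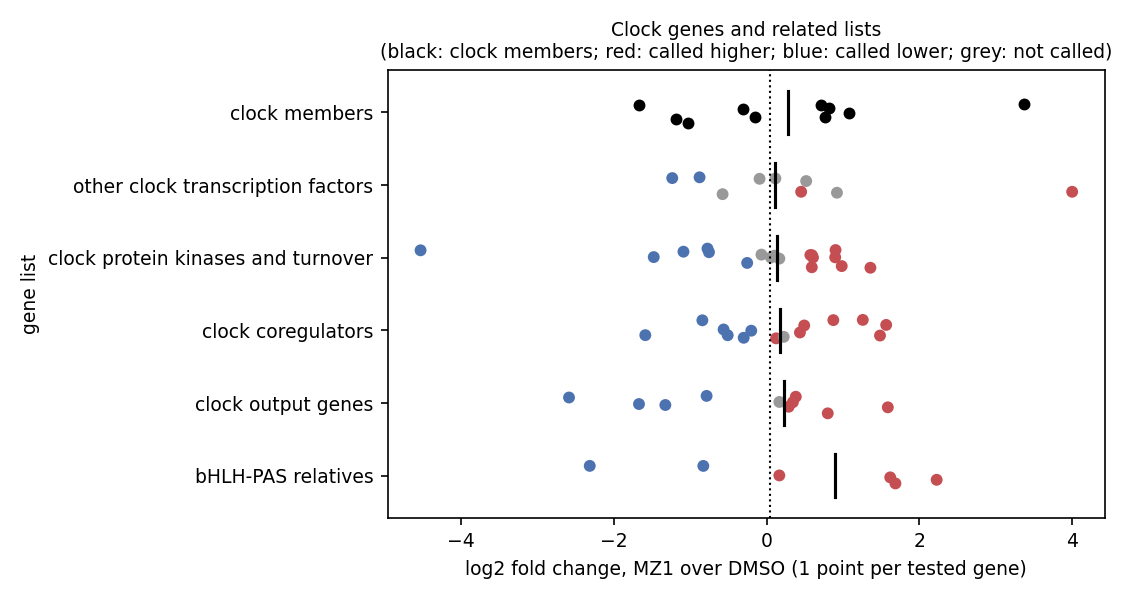
Log2 fold change of each tested gene in the clock set and in 5 related lists, with 1 point per gene, a black bar at each list's median and a dotted line at the median of all tested genes. Points are spread to both sides of 0 in each list, and BHLHE40 at 3.998 and CRY2 at 3.36 lie furthest to the right.

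Of 14 coregulators that bind clock factors, 7 rose and 6 fell, again near the shares of all tested genes (42.8% and 41.3%). The median of 0.17 was 0.10 without DMSO replicate 1, 0.27 without MZ1 replicate 1 and 0.08 without MZ1 replicate 2. It moved further with upper-quartile scaling (0.45) and with the stricter count filter (0.35). Over all tested genes the median was 0.05, and 0.32 and −0.0015 in those settings. SFPQ, a partner of PER complexes, rose from 1014 and 1025 CPM to 2515 and 2364 CPM (1.26 ± 0.04; edgeR adjusted p = 1.48e-20). KDM5A, a histone demethylase that binds CLOCK and BMAL1, rose by 1.56 ± 0.05 and the methyltransferase gene KMT2A by 1.48 ± 0.04. WDR5, a methyltransferase subunit found with PER proteins, fell by 1.59 on the log2 scale, the corepressor gene SIN3A by 0.84, and NCOR1, which carries HDAC3 to REV-ERB sites, by 0.51 (edgeR adjusted p = 5.64e-19, 2.08e-13 and 1.45e-10).

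Of 10 genes outside the loops that are known as clock outputs in several tissues, 5 rose and 4 fell, near the 42.8% and 41.3% of all tested genes. The median was 0.23, and 0.50 with upper-quartile scaling, beside 0.05 and 0.32 over all tested genes. POR, the electron donor of cytochromes P450, rose from 38.3 and 42.7 CPM to 126 and 117 CPM (1.59 ± 0.06; edgeR adjusted p = 1.1e-17). KLF10 rose by 0.80 ± 0.11 and the haem synthesis gene ALAS1 by 0.38 ± 0.06. The transferrin receptor gene TFRC fell by 1.67 on the log2 scale, KLF11 by 2.58 and NAMPT, the rate-limiting enzyme of NAD salvage, by 1.32 (edgeR adjusted p = 2e-21, 4.38e-15 and 2.47e-13).

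CLOCK and BMAL1 belong to the bHLH-PAS family, and 6 of 12 listed relatives were tested, of which 4 rose and 2 fell, beside 42.8% and 41.3% of all tested genes. The median of 0.89 depends on which genes are tested: it was 0.22 without DMSO replicate 1, 0.20 without MZ1 replicate 1 and 0.14 without MZ1 replicate 2, each with 7 genes tested. It was 0.09 with no filter and 0.34 with the stricter one. HIF1A, the oxygen-sensitive subunit, rose from 119 and 117 CPM to 381 and 378 CPM (1.69 ± 0.04; edgeR adjusted p = 2.09e-21). EPAS1 (HIF2α) fell by 0.83 on the log2 scale and ARNT2 fell by 2.31. AHRR, a repressor of the dioxin receptor, rose by 2.22 ± 0.26 and NPAS1 by 1.62 ± 0.42, the latter from 10 counts in each DMSO library to 27 and 25. The common partner gene ARNT was called higher by 0.17 ± 0.07 (edgeR adjusted p = 0.0274), but not when scaled by library totals (0.09), when no count filter was set (0.09), with DESeq2 (adjusted p = 0.0837), or without DMSO replicate 2 (0.03) or MZ1 replicate 2 (0.14).

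Facts of the whole series bear on these values. Libraries held 14246367 to 16488005 counts, and the first principal component held 96.3% of the variance. All 7 markers of B-cell precursors (among them CD79A, PAX5, EBF1 and VPREB1) were above 0 in each library, at a summed 2015 and 2061 CPM with DMSO and 960 and 1002 CPM with MZ1, and all 7 fell (edgeR). Of 13 markers of T, myeloid, erythroid, epithelial, stromal and endothelial cells, 9 had a row, and their sum was 28.3 to 32.8 CPM with DMSO and 32.5 to 37.2 CPM with MZ1. Of the 8 tested, 3 rose (CD14, LYZ and MPO), 3 fell (TRAC, CSF1R and PECAM1) and 2 did not pass. MPO went from 0 counts in both DMSO libraries to 141 and 96, CD14 from 7 and 10 to 107 and 93, and TRAC from 114 and 117 to 0. MPO was thus at 0 in both DMSO libraries and TRAC in both MZ1 libraries. Their part in the clock gene differences was not tested.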

How the data were processed

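RNA-seq counts of 4 libraries of 697 cells were used. Raw read counts per Ensembl gene are as the authors deposited them, and the submitters' processing notes name HISAT2 2.2.0 and hg38. How reads were counted, with which annotation and strand setting, is not given in the sources used here. All 28814 IDs were found in GENCODE 29 (GRCh38, the same build), and symbols were matched for 28597. The test was edgeR 4.0.16 under R 4.3.3: filterByExpr by group, TMM, glmQLFit and glmQLFTest with treatment as the only term, Benjamini-Hochberg over 16862 genes, calls at an adjusted p below 0.05. Alternatives used DESeq2 1.42.0 and limma-voom (limma 3.58.1). Per-kilobase levels divide CPM by the union of annotated exons. The fit was tested on simulated counts in which 200 genes were changed. In the data 84.2% of tested genes were called, so the simulation cannot show how scaling and calls hold when most genes differ. Replicates differed by more than counting noise (chi-square over its degrees of freedom was 2.44 between the DMSO libraries and 2.17 between the MZ1 libraries).

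The members and the gene lists were chosen with earlier results of these data known. Named genes were all 10 members, all tested genes of a list with 9 or fewer, otherwise up to 3 per direction by adjusted p, the 3 coding genes nearest in level to the members with the largest rise and drop, and genes sharing exons with a member. Some listed genes are not reported here by name. With 2 libraries a group, the smallest exact two-sided permutation p is 0.333, and calls rest on the spread edgeR pools over genes.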

Additional observations from a re-analysis of the deposited data

How the results depend on the processing

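Scaling, count filter, test, replicate block and each library in turn were varied. All genes gave 7222 higher and 6969 lower calls, and 8304 higher and 5880 lower with upper-quartile scaling, so 58.5% of calls were rises in place of 50.9%. The replicate block gave 7107 and 6856, and 5 clock members higher and 4 lower as without it. The titles share replicate numbers, but nothing says that the numbers mark a shared culture or day, so they were not taken to pair libraries. The deviations of same-numbered libraries correlated at 0.014, which with 2 libraries a group cannot decide whether they were paired. Called clock members stayed at 5 higher and 3 to 5 lower. Of 9 other clock factors tested, 2 were called higher, but 5 with upper-quartile scaling (7222 and 8304 of all 16862 tested genes). With the stricter count filter 3 of 6 were called higher, beside 5572 of all 12535 genes tested there. PER2 turned from −0.15 to 0.12 with upper-quartile scaling and to 0.0205 with the stricter filter. PER2 was called lower with library totals alone (−0.23) and without a count filter (−0.23), while CLOCK lost its call with upper-quartile scaling (−0.04), the stricter filter (−0.14), DESeq2 (−0.29), and without DMSO replicate 1 (−0.26) or MZ1 replicate 1 (−0.27). Motif counts in members were as given with the 250 bases before the start alone, except ROR element cores, in 3 members in place of 4. Genes with few reads, such as RORA, CIART and NPAS2, have wide errors at this depth. RORA (−0.04) turned without DMSO replicate 2 and CIART (0.09) without MZ1 replicate 1.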

Other observations

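USP2, a ubiquitin protease under clock control in several tissues, was chosen after its values were seen. It had 74 and 97 counts with DMSO and 1 and 5 with MZ1, a log2 fold change of −4.53 ± 0.46 (edgeR adjusted p = 1.48e-09), and 17.5% of its exonic bases are shared with an antisense gene. HLF, the third PAR bZIP gene beside DBP and TEF, was under the count filter with 1 and 0 counts with DMSO and 19 and 7 with MZ1. The relatives thus had values on both sides: DBP lower, TEF higher in the test over all libraries, HLF with more counts with MZ1 and no test.

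By distance of log2 CPM over the 4 libraries, the protein-coding genes most like CRY2 were FNIP1 (distance 0.32), EXOC8 (0.43) and FAM43A (0.47), with log2 fold changes of 3.21, 2.96 and 3.34. The nearest to NR1D1 were BCKDHB (0.086), SV2A (0.20) and DOK1 (0.20), with −1.70, −1.64 and −1.80. With 2 groups of 2 libraries such likeness reflects level and difference alone.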
